A study of Mus musculus with 4 samples.

Results

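The mRNA of histone and DNA modifying enzymes was followed in stimulated CD4+ T cells that had or lacked PDK4. This kinase of the mitochondria phosphorylates pyruvate dehydrogenase and thereby holds back the conversion of pyruvate into acetyl-CoA. The group held the genes named as histone deacetylases (Hdac), sirtuins (Sirt), lysine acetyltransferases (Kat), lysine demethylases (Kdm), lysine methyltransferases (Kmt2, Kmt5 and Setd), DNA methyltransferases (Dnmt) and TET dioxygenases (Tet), together with Ezh1, Ezh2, Ep300 and Crebbp. Symbols were matched as the deposited tables spell them, which gave 71 of 23238 symbols. No symbol with the stem Kmt5 was found, and Setd8, an older symbol of Kmt5a, stands for that enzyme. Among the 71, Dnmt3aos is not an enzyme gene but an antisense RNA of the Dnmt3a locus. RNA came from 2 libraries of PDK4 KO and 2 of WT CD4+ T cells, all labelled with the strain C57BL/6j. In both genotypes, naive cells from spleen and lymph nodes were selected with magnetic beads and then kept in culture with IL-2 and with stimulation of CD3 and CD28 over 48 hours. The labels give no knockout allele, and no age or sex of the mice, and do not say if the replicates are different mice, different cultures or neither. The p-values therefore rest on differences among 4 libraries that could be technical.

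These enzymes set, remove and recycle the chemical marks on chromatin. Acetyltransferases use acetyl-CoA, methyltransferases use S-adenosylmethionine, sirtuins consume NAD, and the jumonji demethylases and TET enzymes need 2-oxoglutarate, so the activity of each class draws on a metabolite of the cell. In CD4+ T cells, DNA methyltransferases and the H3K27 methyltransferase EZH2 are known for keeping cytokine genes of other helper lineages silent, and TET enzymes and H3K27 demethylases for opening such genes. The counts below are levels of mRNA and hold no measurement of a mark, a protein or an enzyme activity.

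Libraries held between 8837810 and 9739624 counts. Pdk4 itself had 0 and 2 counts in KO replicates 1 and 2, against 1 and 0 counts in WT replicates 1 and 2, all under the floor of 3 counts taken here as the limit of detection. A difference in Pdk4 was therefore not detectable, and as the deleted part of the gene is not given, these counts check nothing about the labels. Of the CD4 T cell markers (Cd4, Cd3e, Cd3d, Cd3g, Cd28, Cd5 and Lck), all 7 were tested and Cd5 rose (log2 fold change 0.29, adjusted p = 0.0341), a call lost without either KO library (0.0768 without replicate 1 and 0.332 without replicate 2), without WT replicate 2 (0.267) and with upper quartile scaling (0.0716). At an unadjusted p under 0.05 there were 3 of these 7, the other two being Cd3d and Cd3g, lower in both KO libraries (log2 fold changes -0.16 and -0.28, adjusted p = 0.273 and 0.359). The Y-linked demethylase Kdm5d had 18.7 and 20.2 CPM (counts scaled to library size) in KO and 16.2 and 17.02 CPM in WT, so RNA of male cells was present in every library. Of 15 tested B cell markers 12 fell and 0 rose, with a summed level of 172 and 185 CPM in KO, against 316 and 351 CPM in WT. Of the 16 B cell markers, 2 had no count in either KO library, and 1 of these had none in WT either. Without WT replicate 2, 6 of the B cell markers fell. Of 10 tested CD8 T and NK cell markers 1 fell, Gzma, and the list summed to 272 and 254 CPM in KO, against 423 and 440.3 CPM in WT. Of 4 tested myeloid markers none passed the test in edgeR, DESeq2 or limma-voom (1 had an unadjusted p under 0.05), and the 11 listed summed to 3.68 and 9.36 CPM in KO, against 8.08 and 6.55 CPM in WT. In such bulk samples, fewer cells of a type and less RNA per cell cannot be told apart. The part of these other cells in the values below was not tested.

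Most of the enzyme genes did not differ detectably between the genotypes. Of 66 members with enough counts to be tested, 1 rose in KO, the H3K36 demethylase Kdm2b, and 0 fell, by the quasi-likelihood test of edgeR, with p-values adjusted by Benjamini-Hochberg over all 11464 tested genes. Across all tested genes 2.66% were called changed, 1.45% as higher and 1.21% as lower in KO, so that 1 of 66 is near the share of genes at large. DESeq2 and limma-voom also called Kdm2b and no fall. At an unadjusted p under 0.05 there were 8 members, 6 higher and 2 lower in KO, or 12.1% of those tested, beside 13.5% of all tested genes. The KO and WT libraries did not overlap in 25 members, or 37.9%, beside 43.4% of all tested genes. Log2 fold changes of the tested members, KO over WT, ran between -0.62 for Tet1 and 0.70 for Kat2a with a median of 0.04, against a median of 0.00041 over all tested genes. The size of the change, whatever its sign, had a median of 0.12 over the members and 0.18 over all tested genes, or 0.11 and 0.14 among genes whose mean reached 10 CPM.

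**Figure D1:**
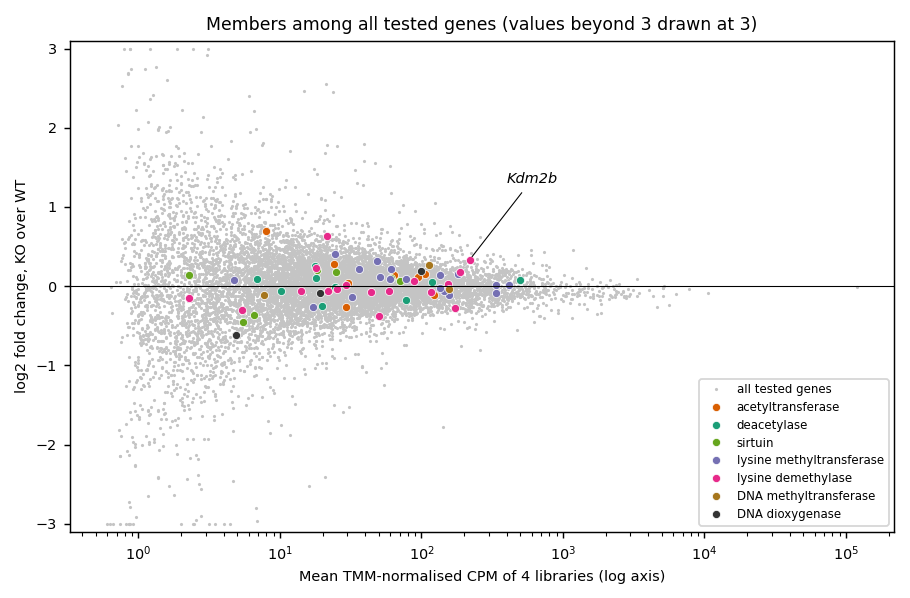
Log2 fold change of KO over WT against the mean level of the 4 libraries in TMM-normalised CPM on a log axis, with all 11464 tested genes as grey points and the 66 tested members in the colour of their enzyme class. The members lie in the band of the other genes, between -0.62 and 0.70, and Kdm2b is the 1 member past the test.

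How small a change could be seen depended on the counts. Levels are TMM-normalised CPM of reads from transcript ends, which do not scale with transcript length. Between genes they can be set beside each other only roughly. Priming, copying of reads, overlapping 3' ends and multiply matching reads may differ from gene to gene. Tested members spanned means of 2.28 to 494 CPM with a median of 46.3 CPM, against 23.9 CPM for all tested genes. The median standard error of the log2 fold change was 0.0954 in the 19 members whose mean reached 100 CPM, 0.189 in the 37 between 10 and 100 CPM, and 0.438 in the 10 under 10 CPM. The approximate 95% interval, built from each gene's F statistic, lay within a log2 change of 1 (a 2-fold change) in either direction for 57 of the 66, and within 0.5 for 38. The 9 members whose interval passed 1 in some direction were Sirt3, Sirt4, Sirt5, Kat2a, Setdb2, Kdm4c, Kdm6b, Kdm8 and Tet1, and of these only Kdm6b had a mean over 10 CPM.

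**Figure D2:**
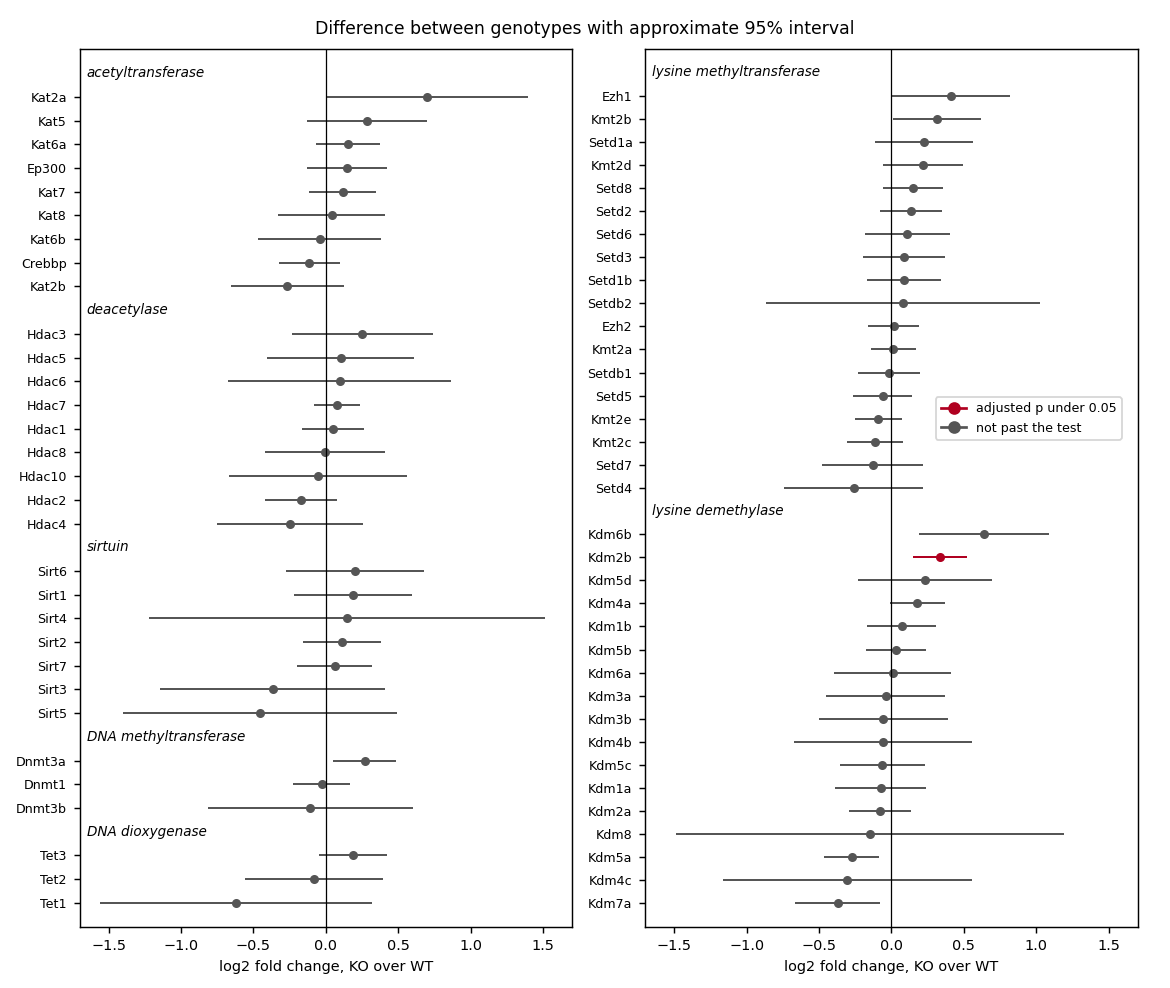
Log2 fold change of KO over WT for each tested member by enzyme class, with lines for the approximate 95% interval. Kdm2b, in red, has an adjusted p under 0.05, and intervals widen for members of low level such as Sirt4, Kdm8 and Tet1.

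Among the demethylases, Kdm2b was both the member that rose and the highest in level. Of 17 tested demethylases 4 had an unadjusted p under 0.05, or 23.5%, beside 13.5% of all tested genes. KDM2B removes methyl groups from lysine 36 of histone H3 and brings a variant Polycomb complex to unmethylated CpG-rich promoters through its CXXC zinc finger. Kdm2b had 229.5 and 261 CPM in KO replicates 1 and 2, against 203 and 185 CPM in WT replicates 1 and 2. Both KO libraries were above both WT libraries, and the smaller gap, between KO replicate 1 and WT replicate 1, was close to the distance between replicates. The means were 245 ± 22.5 CPM in KO and 194 ± 12.5 CPM in WT (SD, n = 2 each). The log2 fold change was 0.34, with an SE of 0.0886 and a 95% interval of 0.16 to 0.52 (adjusted p = 0.0286). Among the alternatives of scaling, filter, tool and left-out library, the call was lost without KO replicate 2 (log2 fold change 0.24, adjusted p = 0.364), without WT replicate 2 (0.27, 0.281) and with upper quartile scaling (0.33, 0.0694), while the direction held. The gene lies on the minus strand of chromosome 5 (122870665 to 122989823, GRCm38), and its 3' end overlaps that of Rnf34 on the plus strand by 627 bases. Rnf34 had 21.0 and 24.5 CPM in KO, against 17.7 and 19.7 CPM in WT (log2 fold change 0.28, adjusted p = 0.629), and as the use of strand in counting is not given, reads of either gene may have been counted for the other.

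The 3' count of Kdm2b sums transcripts from several start sites, since a long form with the jumonji domain and a short form without it share their 3' end. RefSeq on GRCm38.p6 lists 4 starts for the gene in 2 clusters. The start regions below are the most upstream of each cluster, shown because a change in the 3' count cannot be assigned to either. Each runs 5′ to 3′ on the minus strand over 300 bases, and capitals mark CG dinucleotides, the motif read by the CXXC finger.
Kdm2b upstream start, chr5:122989050-122989349: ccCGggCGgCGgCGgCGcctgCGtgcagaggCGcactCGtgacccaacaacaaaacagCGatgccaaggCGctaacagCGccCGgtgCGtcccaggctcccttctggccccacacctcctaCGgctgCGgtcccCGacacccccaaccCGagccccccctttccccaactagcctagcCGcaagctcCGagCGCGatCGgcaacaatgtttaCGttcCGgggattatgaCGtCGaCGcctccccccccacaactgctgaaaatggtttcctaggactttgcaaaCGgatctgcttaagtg
Kdm2b internal start, chr5:122900318-122900617: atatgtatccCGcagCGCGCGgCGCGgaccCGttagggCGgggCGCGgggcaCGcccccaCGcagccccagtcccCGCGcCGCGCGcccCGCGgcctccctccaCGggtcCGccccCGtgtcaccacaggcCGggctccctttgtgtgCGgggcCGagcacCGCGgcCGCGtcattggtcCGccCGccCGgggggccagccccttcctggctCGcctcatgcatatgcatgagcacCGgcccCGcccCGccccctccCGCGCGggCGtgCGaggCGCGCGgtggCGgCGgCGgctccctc
The upstream region held 28 CG dinucleotides, a number reached by 14.2% of the 32851 start regions of the same length in the table. In the internal region there were 47, reached by 1.44% of them. The other start of the upstream cluster, not shown, held 18, reached by 29.7% of the regions. At the other internal start there were 49, reached by 1.02%. The motif searched was CG, which reads the same on both strands. Start regions of the 59 members found in the table had a median of 21.3 CG per gene, against 21.0 for the tested genes found there and 7 for all genes of the table, so in this feature the members were like other expressed genes.

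The other H3K36 and H3K4 demethylases went both ways without passing the test. Kdm2a, the close relative of Kdm2b with the same substrate, had 119 and 109 CPM in KO, against 122 and 119.5 CPM in WT, a log2 fold change of -0.08 (95% interval -0.29 to 0.13). Kdm5a, which removes the active mark H3K4 trimethylation, had 160.4 and 153 CPM in KO, against 186 and 192 CPM in WT. Its KO libraries were both lower, with a log2 fold change of -0.27 (SE 0.0899, unadjusted p = 0.00464, adjusted p = 0.112). Kdm5b, of the same family, had a log2 fold change of 0.03 (adjusted p = 0.946), with 142 and 172 CPM in KO, against 155 and 151 CPM in WT. The X-linked Kdm5c and its Y-linked partner Kdm5d had log2 fold changes of -0.06 and 0.23 (adjusted p = 0.911 and 0.727), and how reads shared by this pair were counted is not given. The flavin-dependent demethylases Kdm1a and Kdm1b, which act on lower methylation states of H3K4, were at -0.08 and 0.07 (adjusted p = 0.901 and 0.868).

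The demethylases of H3K27 differed from each other in their values. Kdm6b, known as JMJD3 and induced by inflammatory signals, had 22.1 and 30.7 CPM in KO, against 15.8 and 18.1 CPM in WT. Both KO libraries were above WT, but KO replicate 2 was far above replicate 1. The log2 fold change was 0.64 (SE 0.217, 95% interval 0.19 to 1.08, unadjusted p = 0.00611), which did not pass after adjustment (adjusted p = 0.128). Without KO replicate 2 the log2 fold change of Kdm6b was 0.38. Tmem88 lies on the same strand within 1000 bases past the end of Kdm6b and had 48.9 and 44.5 CPM in KO, against 56.3 and 52.4 CPM in WT. Kdm6a, the X-linked enzyme with the same substrate, had 32.8 and 26.1 CPM in KO, against 35.03 and 23.7 CPM in WT, with a log2 fold change of 0.0092 (adjusted p = 0.995). Its replicates differed more within each genotype than the means did between them.

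Demethylases of H3K9 and the remaining members of the class did not pass the test. Kdm7a, a PHD finger enzyme for repressive marks, had 45.7 and 41.9 CPM in KO, against 53.3 and 59.9 CPM in WT, lower in both KO libraries with a log2 fold change of -0.37 (SE 0.141, unadjusted p = 0.0130, adjusted p = 0.198). A long antisense RNA overlaps the 3' end of Kdm7a. Kdm4a, which acts on H3K9 and H3K36, had 204 and 196 CPM in KO, against 187 and 167 CPM in WT (log2 fold change 0.18, adjusted p = 0.388). Kdm3a, Kdm3b, Kdm4b and Kdm4c had log2 fold changes between -0.30 and -0.04 with adjusted p between 0.833 and 0.966. Kdm4b was spread in WT, at 8.19 CPM in replicate 1 and 20.6 CPM in replicate 2, around the KO values of 13.4 and 14.4 CPM. Kdm8, a jumonji protein whose histone activity is debated, was the lowest tested member at 2.15 and 2.18 CPM in KO, against 1.93 and 2.85 CPM in WT.

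**Figure D3:**
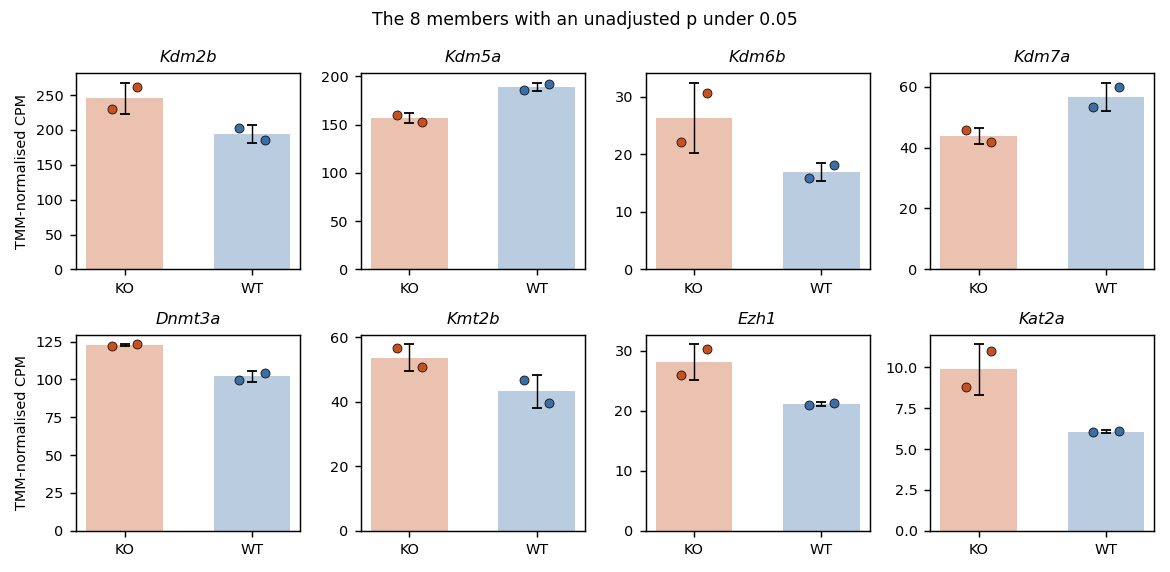
TMM-normalised CPM of the 8 members with an unadjusted p under 0.05, KO left and WT right, with points for the libraries, bars for the mean and error bars for the SD (n = 2). The genotypes do not overlap in any of them, beside 43.4% of all tested genes without overlap. As the 8 were chosen by p-value from the same libraries, this is no added support. Kdm2b is the 1 past the adjusted test.

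Methyltransferases were the class with the highest summed level, and 0 of 18 passed the test in edgeR, DESeq2 or limma-voom. At an unadjusted p under 0.05 in edgeR there were 2, or 11.1%, beside 13.5% of all tested genes. The Polycomb enzyme Ezh2, which trimethylates H3K27 and is high in dividing lymphocytes, had 334 and 341 CPM in KO, against 302 and 366 CPM in WT. The KO values lay between the WT values, with a log2 fold change of 0.02 (SE 0.0828, 95% interval -0.15 to 0.18, adjusted p = 0.967). Ezh1, its counterpart in resting cells, was lower in level, at 26.0 and 30.3 CPM in KO, against 20.9 and 21.4 CPM in WT. That is a log2 fold change of 0.41 (SE 0.196, unadjusted p = 0.0443), which did not pass (adjusted p = 0.351). Ezh2 was thus at 337 ± 5.56 CPM and Ezh1 at 28.1 ± 3.02 CPM in KO, against 334 ± 45.4 and 21.1 ± 0.298 CPM in WT (SD, n = 2 each).

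The MLL family, which methylates H3K4 at promoters and enhancers, included the highest methyltransferase, Kmt2a, at 421 and 412 CPM in KO, against 397 and 429 CPM in WT (log2 fold change 0.01, 95% interval -0.14 to 0.16). Kmt2b had 56.8 and 50.7 CPM in KO, against 46.9 and 39.6 CPM in WT. Its KO libraries were both higher, at a log2 fold change of 0.31 (SE 0.145, unadjusted p = 0.0374, adjusted p = 0.325). The enhancer enzymes Kmt2c and Kmt2d differed in sign, neither past the test. Kmt2d had 61.5 and 70.5 CPM in KO, against 53.3 and 59.9 CPM in WT (0.22, adjusted p = 0.498), and Kmt2c had 151 and 150.4 CPM in KO, against 164 and 162 CPM in WT (-0.12, adjusted p = 0.654). Kmt2e, a relative without known methyltransferase activity, was the third highest of all members at 334 and 317 CPM in KO, against 359.8 and 334 CPM in WT (-0.09, adjusted p = 0.676).

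SET domain enzymes outside these families gave log2 fold changes between -0.26 and 0.22. Setd1a and Setd1b, the catalytic subunits of the COMPASS complexes for bulk H3K4 methylation, were at 0.22 and 0.09 (adjusted p = 0.614 and 0.833). Setd2, the enzyme of H3K36 trimethylation, had 143 and 141 CPM in KO, against 141 and 117 CPM in WT (0.14, adjusted p = 0.619). Setd8, which sets H4K20 monomethylation in the cell cycle, had 194 and 184 CPM in KO, against 191 and 151 CPM in WT (0.15, adjusted p = 0.552), and for both of these the WT replicate 2 value stood below the other 3 libraries. Setdb1, an H3K9 methyltransferase that silences endogenous retroviruses, was at 125 and 143 CPM in KO, against 143 and 129 CPM in WT (-0.02, 95% interval -0.23 to 0.19). Setdb2 was the lowest of the class at 5.32 and 4.46 CPM in KO, against 3.30 and 5.92 CPM in WT. Setd3, an actin methyltransferase despite its name, Setd4, Setd5, Setd6 and Setd7 had adjusted p between 0.694 and 0.859.

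Among acetyltransferases 0 of 9 passed the test in edgeR, DESeq2 or limma-voom. In edgeR 1 had an unadjusted p under 0.05, or 11.1%, beside 13.5% of all tested genes. The co-activators p300 and CBP, which acetylate H3K27 at enhancers, gave small differences of opposite sign. Ep300 had 66.2 and 67.6 CPM in KO, against 53.5 and 67.4 CPM in WT (log2 fold change 0.14, 95% interval -0.13 to 0.42, adjusted p = 0.709). Crebbp, the highest of the class, had 115 and 122 CPM in KO, against 129.9 and 127 CPM in WT (-0.12, 95% interval -0.32 to 0.09, adjusted p = 0.688). Kat2a, the GCN5 subunit of the SAGA complex, was the lowest of the class and had the largest log2 fold change of all tested members. It had 8.80 and 11.0 CPM in KO, against 6.03 and 6.13 CPM in WT, or 0.70 on the log2 scale (SE 0.338, 95% interval 0.01 to 1.39, unadjusted p = 0.0462, adjusted p = 0.358). Dhx58, an interferon-induced RNA helicase gene, lies on the same strand within 1000 bases past the end of Kat2a. Its start is on the near side and its 3' end on the far side, with no overlap. Dhx58 had 12.0 and 11.5 CPM in KO, against 6.14 and 4.97 CPM in WT (log2 fold change 1.08, adjusted p = 0.0744), and the part of reads from there in the Kat2a count was not tested.

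The close relative Kat2b was lower in mean with overlapping libraries, at 27.5 and 25.8 CPM in KO, against 26.5 and 37.5 CPM in WT (-0.27, adjusted p = 0.598). The MYST enzymes Kat5, Kat6a, Kat6b, Kat7 and Kat8, which acetylate histones H3 and H4 and are named after their shared domain, had log2 fold changes between -0.04 and 0.28 with adjusted p between 0.592 and 0.966. Kat6a was the highest of these, with 109 and 112 CPM in KO, against 102 and 97.0 CPM in WT.

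Deacetylases had the single most abundant transcript of the group. Hdac7, a class IIa enzyme known in thymocytes for silencing Nr4a1, had 470.2 and 545 CPM in KO, against 487 and 475 CPM in WT. The KO libraries lay on either side of the WT libraries, and the log2 fold change was 0.08 (SE 0.0748, 95% interval -0.07 to 0.23, adjusted p = 0.723). The class I enzyme Hdac1 had 118 and 122 CPM in KO, against 122 and 111 CPM in WT (0.05, 95% interval -0.16 to 0.26). Hdac2, its partner in the same complexes, was lower in both KO libraries at 73.4 and 72.3 CPM, against 77.2 and 87.0 CPM in WT (-0.17, adjusted p = 0.583). Hdac3, the enzyme of the NCoR complex, had 18.6 and 19.6 CPM in KO, against 13.3 and 18.7 CPM in WT (0.25, adjusted p = 0.712). Hdac4, Hdac5, Hdac6, Hdac8 and Hdac10 had log2 fold changes between -0.25 and 0.10 with overlapping libraries. In all, 0 of 9 tested deacetylases passed in edgeR, DESeq2 or limma-voom. In edgeR 0 had an unadjusted p under 0.05, beside 13.5% of all tested genes.

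Sirtuins, the deacylases that depend on NAD, had means under the median of 46.3 CPM of the tested members, apart from Sirt7 and Sirt2. Of 7 tested, 0 passed in the same 3 tools, with 0 at an unadjusted p under 0.05 in edgeR, beside 13.5% of all tested genes. Sirt1, the nuclear enzyme that acts on histones and p53, had 23.9 and 28.8 CPM in KO, against 24.3 and 22.1 CPM in WT (log2 fold change 0.18, 95% interval -0.22 to 0.58). Sirt7, a nucleolar member, was the highest at 71.8 and 71.6 CPM in KO, against 65.4 and 72.0 CPM in WT (0.06, adjusted p = 0.900). The mitochondrial members Sirt3, Sirt4 and Sirt5 act in the compartment where PDK4 resides, and their counts were too low for a close comparison. Sirt3, the main mitochondrial deacetylase, had 5.93 and 5.55 CPM in KO, against 5.91 and 8.88 CPM in WT (-0.37, 95% interval -1.14 to 0.40, adjusted p = 0.749). Sirt4 had 3.17 and 1.63 CPM in KO, against 1.48 and 2.85 CPM in WT, and Sirt5 had 2.35 and 6.86 CPM in KO, against 7.51 and 5.07 CPM in WT. For each of these 3, the intervals include a fall by more than 2-fold, so the data do not show that the genotypes are alike. The 3' end of Sirt3 also overlaps that of Ric8a on the opposite strand, which makes its value uncertain.

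The enzymes of DNA methylation were led by Dnmt1, which copies methylation after replication, at 152 and 160.0 CPM in KO, against 158 and 161 CPM in WT (log2 fold change -0.03, 95% interval -0.22 to 0.16, adjusted p = 0.943). Dnmt3a, the de novo methyltransferase of mature T cells, had 122 and 123 CPM in KO, against 99.6 and 105 CPM in WT. The libraries did not overlap, with 123 ± 0.692 CPM in KO and 102 ± 3.46 CPM in WT (SD, n = 2 each), but the log2 fold change of 0.27 did not pass (SE 0.103, unadjusted p = 0.0144, adjusted p = 0.209). Dnmt3b had 6.24 and 8.71 CPM in KO, against 7.39 and 8.67 CPM in WT (-0.11, adjusted p = 0.946). None of the 3 tested DNA methyltransferases or 3 TET enzymes passed in edgeR, DESeq2 or limma-voom. Dnmt3a was the 1 with an unadjusted p under 0.05 in edgeR, beside 13.5% of all tested genes.

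TET enzymes oxidise methylcytosine as the first step of its removal, and their levels were ordered Tet3, Tet2 and Tet1 in every library. Tet3 had 106 and 105 CPM in KO, against 100.4 and 84.6 CPM in WT (log2 fold change 0.19, adjusted p = 0.488). Tet2, the member best known for restraining lymphocyte growth, had 19.1 and 18.3 CPM in KO, inside the WT values of 24.0 and 15.6 CPM (-0.08, adjusted p = 0.936). Tet1 had 3.68 and 4.03 CPM in KO, against 4.21 and 7.61 CPM in WT, the lowest log2 fold change of the group at -0.62 with an interval of -1.55 to 0.31 (adjusted p = 0.619).

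**Figure D4:**
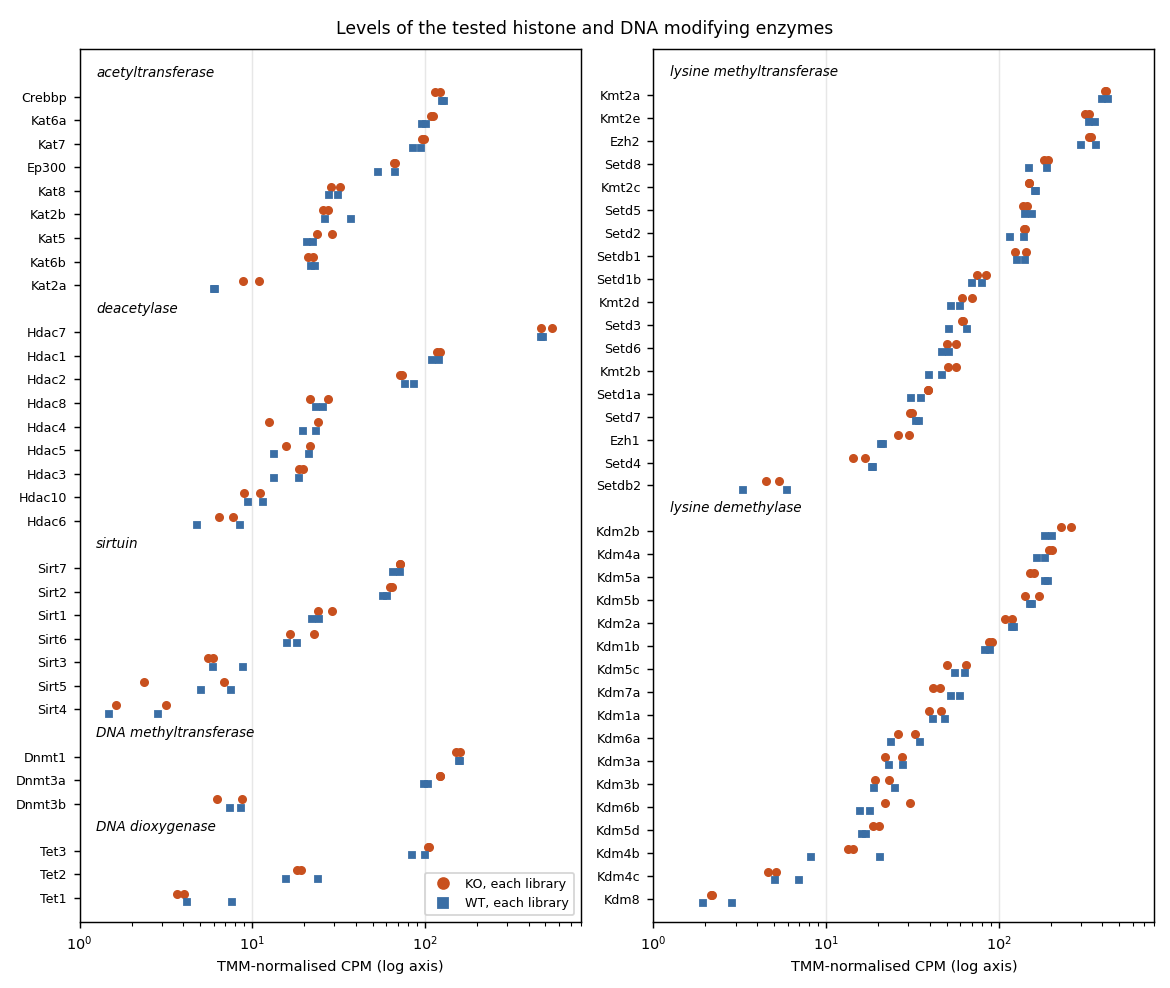
Levels of the 66 tested members in every library, in TMM-normalised CPM on a log axis, grouped by enzyme class and ordered by mean, with circles for KO and squares for WT. Member means run from 494 CPM for Hdac7 to 2.28 CPM for Kdm8. The symbols of the genotypes lie close together for many members and further apart for some, such as Kat2a, Kdm6b and Tet1.

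Of the 71 symbols, 5 had too few counts for the test. Hdac9 had 5 and 4 counts in KO, against 1 and 12 in WT, and Hdac11 had 2 and 3 counts in KO, against 4 and 6 in WT. Kdm4d had 7 and 6 counts in KO, against 3 and 6 in WT. Dnmt3l, a catalytically inactive cofactor of germ cells, had 0 counts in both KO libraries and 0 and 7 in WT, and Dnmt3aos had 2 and 0 in KO and none in WT. In CPM, 3 counts equal 0.307 to 0.341 depending on the library, and differences in these 5 were not detectable at this depth.

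Summed levels are given as a description with no test. All 71 members summed to 5363 and 5512 CPM in KO, against 5322 and 5261 CPM in WT. Methyltransferases made up 2276 and 2265 CPM in KO, against 2258 and 2212 CPM in WT, and demethylases 1229.5 and 1271 CPM in KO, against 1236 and 1197 CPM in WT. Acetyltransferases summed to 505 and 513 CPM in KO, against 475 and 506 CPM in WT, and the deacetylases without sirtuins to 754 and 844 CPM in KO, against 781 and 774 CPM in WT. Sirtuins summed to 188 and 200.2 CPM in KO, against 178 and 189.5 CPM in WT, and TET enzymes to 129 and 127 CPM in KO, against 129 and 108 CPM in WT. DNA methyltransferases summed to 281 and 292 CPM in KO, against 265 and 275 CPM in WT. Of the 7 classes, methyltransferases of lysine and of DNA had sums that were higher in both KO libraries, and those of the other 5 overlapped. Among all tested genes, 43.4% did not overlap between the genotypes. The gap for lysine methyltransferases was 1.58% in mean. That for DNA methyltransferases lay in Dnmt3a, while Dnmt1 and Dnmt3b were lower in mean in KO. Among the groups by histone residue, the widest relative gap was in the pair of H3K27 demethylases, taken here as Kdm6a and Kdm6b. The pair had 54.9 and 56.8 CPM in KO, against 50.8 and 41.8 CPM in WT. Kdm7a, named above as an enzyme for repressive marks, was put in none of these groups. Kdm7a had 45.7 and 41.9 CPM in KO, against 53.3 and 59.9 CPM in WT. The gap of the pair thus depends on the grouping. The H3K27 methyltransferases Ezh1 and Ezh2 together had 359.5 and 372 CPM in KO, against 323 and 387 CPM in WT. For H3K4, the 6 methyltransferases Kmt2a to Kmt2d, Setd1a and Setd1b summed to 813 and 798 CPM in KO, against 773 and 796 CPM in WT, and the 6 demethylases of the Kdm1 and Kdm5 families to 509 and 537 CPM in KO, against 553 and 547 CPM in WT. The H3K36 demethylases Kdm2a and Kdm2b summed to 349 and 370.5 CPM in KO, against 325 and 305 CPM in WT, a gap that holds the called Kdm2b. The 6 demethylases taken as acting on H3K9 summed to 268 and 263 CPM in KO, against 251 and 240.4 CPM in WT. The libraries did not overlap in the sums of the H3K27, H3K36 and H3K9 demethylases and the H3K4 methyltransferases, all higher in KO. Nor did they in that of the H3K4 demethylases, lower in KO. They overlapped for the H3K27 methyltransferases, for Setd2 as the H3K36 methyltransferase, and for Setdb1 and Setdb2 as those of H3K9. The share of 43.4% above is of single genes, and no such share was computed for sums. Kdm4a, which acts on H3K9 and H3K36, was counted for H3K9 only. Single members made up much of the demethylase gaps. Kdm6b had means of 26.4 CPM in KO and 16.9 CPM in WT, beside 29.5 and 29.4 CPM for Kdm6a. Kdm4a had 200 and 177 CPM, while Kdm3a, Kdm3b, Kdm4b and Kdm4c were lower in mean in KO. Kdm5a had 157 and 189 CPM, and the other H3K4 demethylases went both ways. Only Kdm2b passed the test.

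**Figure D5:**
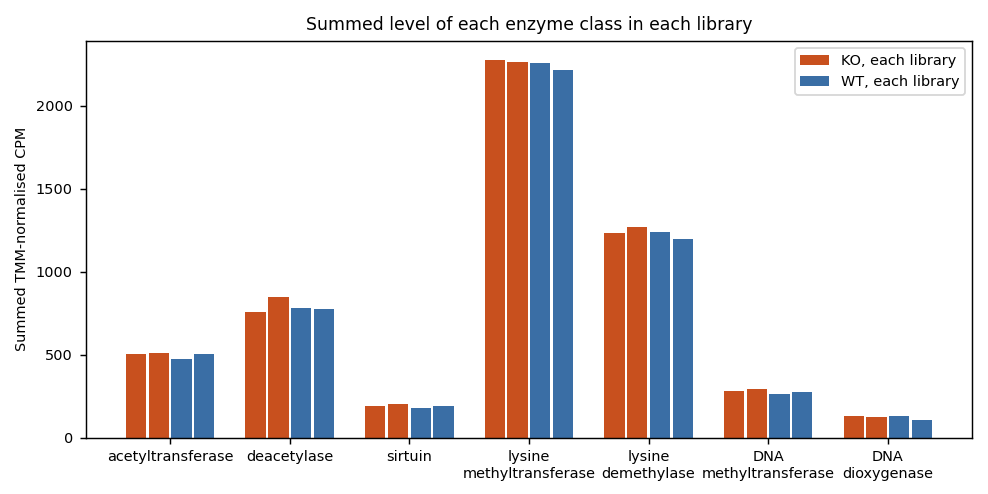
Summed TMM-normalised CPM of each enzyme class in each library, KO left of WT. Methyltransferases have the highest sum, between 2212 and 2276 CPM. The KO and WT libraries do not overlap for methyltransferases of lysine and of DNA, beside 43.4% of all tested genes without overlap.

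Lists of partner genes were read against the 2.66% of all tested genes that were called, 1.45% as higher and 1.21% as lower in KO. Of the Polycomb partners of EZH1 and EZH2, 0 of 10 tested passed (median log2 fold change 0.02), and Eed, the subunit that reads H3K27 trimethylation, had the smallest p at 143 and 132 CPM in KO, against 101 and 118 CPM in WT (0.33, adjusted p = 0.0945). Of subunits of the deacetylase complexes 0 of 30 passed in edgeR, and Arid4a, a subunit of the SIN3 complex, had the smallest p, at 195 and 177 CPM in KO, against 210 and 253 CPM in WT (-0.32, adjusted p = 0.0649). Arid4a was called as lower in KO by limma-voom, and by edgeR with no filter, with the filter at 5 CPM, and without WT replicate 1, and Tbl1x, a subunit of the NCoR complex, was called without KO replicate 2. Of COMPASS partners 0 of 14 passed, with the smallest p for Psip1 (0.18, adjusted p = 0.338). Among the other histone methyltransferases 0 of 27 passed (smallest p for the H3K79 enzyme Dot1l at 0.32, adjusted p = 0.123), and among the other demethylases 0 of 10 (Jmjd6 at 0.26, adjusted p = 0.333). At an unadjusted p under 0.05, edgeR gave 1 Polycomb partner, 4 deacetylase subunits, 1 COMPASS partner, 4 methyltransferases and 2 demethylases. Those are 10% of the Polycomb partners, 13.3% of the deacetylase subunits, 7.14% of the COMPASS partners, 14.8% of the methyltransferases and 20% of the demethylases, beside 13.5% of all tested genes. Apart from Arid4a in limma-voom, neither DESeq2 nor limma-voom called a gene of these lists, and Prmt3, an arginine methyltransferase, was called by edgeR without KO replicate 1.

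Subunits and co-activators of acetyltransferases had 2 of 41 tested genes that rose and 0 that fell, beside 1.45% and 1.21% of all tested genes, with a median log2 fold change of 0.04. Jade2, a scaffold of the complex of the acetyltransferase KAT7, had 87.8 and 83.1 CPM in KO, against 54.3 and 52.8 CPM in WT, or 0.67 on the log2 scale (SE 0.124, adjusted p = 0.000754). Its enzyme Kat7 had 96.2 and 99.5 CPM in KO, against 85.2 and 95.4 CPM in WT (0.11, adjusted p = 0.727). Ncoa2, a nuclear receptor co-activator that recruits p300 and CBP, had 34.98 and 36.6 CPM in KO, against 24.5 and 17.7 CPM in WT (0.77, adjusted p = 0.0188). The call of Ncoa2 was lost without KO replicate 1 (0.0768), KO replicate 2 (0.101) or WT replicate 2 (0.314) and with DESeq2 (0.0521).

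Of 21 tested partners of DNA methylation and demethylation 1 rose and 1 fell, beside the same 1.45% and 1.21%, both of the Gadd45 family, stress-induced proteins linked to active DNA demethylation. Gadd45b had 50.4 and 51.3 CPM in KO, against 27.8 and 37.5 CPM in WT (0.64, adjusted p = 0.0204), and Gadd45g had 56.9 and 59.5 CPM in KO, against 91.8 and 102 CPM in WT (-0.74, SE 0.120, adjusted p = 0.000142). The fall of Gadd45g held in all alternatives, while Gadd45b lost its call without KO replicate 1 (0.103), KO replicate 2 (0.101) or WT replicate 1 (0.282) and with DESeq2 (0.0578). Of 42 tested genes that make or use the cofactors, 1 rose and 1 fell, near the 2.66% called among all tested genes. Acly, the cytosolic source of acetyl-CoA from citrate, had 94.1 and 80.9 CPM in KO, against 111 and 116 CPM in WT (-0.37, adjusted p = 0.0694), and was called as lower in KO with no filter and with the filter at 5 CPM. Nampt, the rate-limiting enzyme of NAD salvage and so of the sirtuins' cosubstrate, had 113 and 117 CPM in KO, against 83.7 and 76.4 CPM in WT (0.52, SE 0.11, adjusted p = 0.00376), and was not called without KO replicate 2 (0.0505) or WT replicate 2 (0.0838). Nnt, the mitochondrial transhydrogenase that couples NADH to NADPH and is disrupted by a deletion in the C57BL/6J substrain, had 12.3 and 12.7 CPM in KO, against 38.2 and 32.8 CPM in WT (-1.50, SE 0.205, adjusted p = 8.85e-06). The labels give the same strain for both genotypes. Whether the KO and WT mice differ at this deletion was not tested, and a difference in substrain would go with genotype and cannot be told apart from it, in Nnt or in other genes. The median of the cofactor list was -0.07.

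The members are spread over every autosome and both sex chromosomes, with at most 7 on one of them, chromosome 6. Of the 66 tested members, 27 have another annotated gene within 1000 bases of their 3' end, and for 13 that gene overlaps on the opposite strand, so that their counts share the uncertainty given for Kdm2b.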

How the data were processed

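RNA was extracted from PDK4 KO and WT CD4+ T cells, and 500 ng per library went into a QuantSeq 3' kit, per the labels' protocols, so that reads come from transcript ends. The authors deposited raw counts per gene symbol for each library, not normalised. The submitters' processing notes name Bowtie2, edgeR and mm10 with no role or version. The tool that counted reads, its strand setting and its treatment of multiply matching reads were not given in the sources used here. Totals were 9739624 and 9104413 counts in KO and 8837810 and 9575879 counts in WT. The labels describe no molecular identifiers, so the floor of 3 counts covers counting error only.

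The 23282 rows hold 23238 symbols, and 35 symbols listed more than once, none of them members, were summed. Counts were tested with edgeR 4.0.16 in R 4.3.3 (filterByExpr, TMM scaling, quasi-likelihood F test of genotype, Benjamini-Hochberg adjustment over all tested genes, threshold 0.05). Standard errors are the log2 fold change over the root of F, and approximate 95% intervals use the t distribution. Only the main edgeR fit was run on simulated counts, drawn from its own model, which cannot check the real variation between libraries. Alternatives were DESeq2 1.42.0, limma-voom 3.58.1, other scalings and filters, leaving out each library, and the replicate number as a block. Gene positions come from GENCODE vM21 on GRCm38, and start regions from RefSeq on GRCm38.p6, in which 59 members were found.

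The members and gene lists were chosen with earlier results of these data known. By rule, values per library were given for members past the test or with an unadjusted p under 0.05, for a written list of well-known enzymes, and for the highest and lowest of each class, and of each other list for genes past the test or with the smallest p. Other members were added to show their class. Cd3d, Cd3g, Tbl1x, Prmt3 and Acly were named after their values were seen.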

Additional observations from a re-analysis of the deposited data

How the results depend on the processing

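Each result was recomputed under 13 alternatives. Kdm2b was called in 9 of the 13, and 0 members rose with upper quartile scaling (adjusted p of Kdm2b 0.0694) and with the replicate number as a block (0.0531), while its adjusted p over the other alternatives that keep all libraries ran between 0.00963 and 0.0428. On leaving out 1 library the number that rose ranged from 0 to 1, with adjusted p of Kdm2b 0.0333 without KO replicate 1, 0.364 without KO replicate 2, 0.0109 without WT replicate 1 and 0.281 without WT replicate 2. Its log2 fold change stayed positive, between 0.24 and 0.43. The number of members that fell was 0 in each alternative. Over all genes, 305 were called, between 170 and 293 with a library left out (170 without KO replicate 1 and 184 without WT replicate 2), and between 235 and 377 otherwise. The cause was not tested.

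Of 855 values of members, 796 kept their direction and side of the threshold, 4 lost the call (all of Kdm2b), 0 gained it and 55 changed sign. Of the 66 tested members 33 never changed sign, 29 did so only when a library was left out, and 4 did so in another setting. These 4 were Kdm6a (-0.0048 with upper quartile scaling), Hdac8 (0.014 with library size only), Setdb1 (0.0024 with library size only) and Kdm4b (0.068 with limma-voom and 0.058 with the block). With a library left out, the log2 fold changes that crossed 0 ranged as follows, as lowest to highest: Hdac1 -0.022 to 0.12, Hdac4 -0.78 to 0.14, Hdac5 -0.20 to 0.47, Hdac6 -0.26 to 0.56, Hdac7 -0.033 to 0.18, Hdac8 -0.20 to 0.16, Hdac10 -0.23 to 0.094, Sirt4 -0.41 to 0.70, Sirt5 -1.41 to 0.13, Sirt6 -0.052 to 0.42, Sirt7 -0.0056 to 0.13. For the next 11 the ranges were Kat2b -0.49 to 0.0065, Kat8 -0.051 to 0.13, Ep300 -0.012 to 0.32, Kmt2a -0.042 to 0.068, Setd1b -0.0067 to 0.19, Setd3 -0.079 to 0.27, Setd5 -0.13 to 0.0065, Setd8 -0.012 to 0.33, Setdb1 -0.12 to 0.077, Setdb2 -0.27 to 0.56, Ezh2 -0.12 to 0.16. For the last 11 they were Kdm1a -0.20 to 0.040, Kdm3a -0.21 to 0.11, Kdm3b -0.25 to 0.16, Kdm4b -0.57 to 0.76, Kdm5b -0.12 to 0.16, Kdm5c -0.26 to 0.11, Kdm6a -0.25 to 0.32, Kdm8 -0.40 to 0.16, Dnmt1 -0.067 to 0.0053, Dnmt3b -0.37 to 0.11, Tet2 -0.36 to 0.26. None of these members was called in any alternative.

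Same-numbered libraries did not deviate together (correlation 0.00684 across genes of the KO and WT replicate differences, which are not independent), so the numbers were taken as names. The block gave 260 called genes, against 305 without it. Of the lists, applied after seeing the data, Jade2, Gadd45g and Nnt kept their call in each alternative. Members under 10 CPM are limited by depth, and none of their intervals lay within 0.5 on the log2 scale.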
